A study of Ovis aries with 6 samples.

Results

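The effect of removing the thyroid gland was described in the choroid plexus of ewes kept in long days. It rests on 4 of the 6 RNA pools of the study, namely the 2 pools of thyroidectomised ewes (THX) and the 2 pools of control ewes (Long). All the ewes behind these 4 pools were kept in long days, so the labelled difference between the groups is the thyroidectomy. The design text gives 8 ewes for the Long group and 7 for the THX group, and RNA of 3 to 4 ewes was mixed in equal amounts in each pool. The total number of ewes in that text is larger than the sum of its groups by 1. Breed, age and hormone levels of the ewes were not used here. Of the 33609 genes listed, 18019 passed the filter on low counts by group and form the set described. The 2 remaining pools, from control ewes in short days (Short), served to estimate the spread between pools. Polyadenylated RNA was sequenced with a stranded mRNA kit, and reads were counted per gene.

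Thyroid hormone acts mainly through nuclear receptors, THRA and THRB, which bind DNA as partners of the retinoid X receptors. With hormone bound they recruit coactivators, and without it they hold corepressors on many of the same genes, so that loss of the hormone can lower or raise transcription. The choroid plexus epithelium secretes cerebrospinal fluid, makes the hormone carrier transthyretin and passes hormone between blood and brain. In sheep and other seasonal breeders thyroid hormone is known to be required for seasonal changes of reproduction.

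Removal of the thyroid was accompanied by lower levels of a small group of genes. In THX relative to Long pools 42 genes fell and 9 rose, 51 of 18019 in all (0.283% of those tested, 0.233% lower and 0.0499% higher). The genes that fell included the hormone targets HR and KLF9, the glucose sensor MLXIPL, enzymes of carbon metabolism, amino acid transporters and CHGA. Those that rose included the Wnt antagonists SOST and SOSTDC1 and the secreted proteins APOA1 and CP. Calls used the quasi-likelihood test of edgeR at a threshold of 0.05 on the adjusted p. With 2 pools per group, the p-values refer to variation between pools. Each pool mixes 3 to 4 ewes, so variation between single ewes enters only as averaged within pools and cannot be estimated.

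Over all tested genes 9067 had a log2 difference above 0 and 8952 below 0, with a median of 0.0011. The 25th and 75th percentiles were −0.12 and 0.12, and the 5th and 95th were −0.59 and 0.52. A difference of at least 2-fold was found for 649 genes, 303 higher and 346 lower, of which 32 were called. Of these 649 genes, 423 had a mean level under 1 CPM (counts scaled to a common library total). The groups did not overlap in 37.2% of all tested genes, and they did not overlap in any of the 51 called genes. An unadjusted p below 0.05 was found for 1636 genes (9.08%), 4.16% higher and 4.92% lower. Calls were rarer among genes of low level. They made up 0.062% of the 3227 genes under 1 CPM and 0.146% of those from 1 to 5 CPM. From 5 to 20 CPM the share was 0.435%, from 20 to 100 CPM 0.316%, and at 100 CPM and over 0.439%. In the ranges up to 20 CPM the median standard error was 0.496, 0.262 and 0.151 on the log2 scale.

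**Figure D1:**
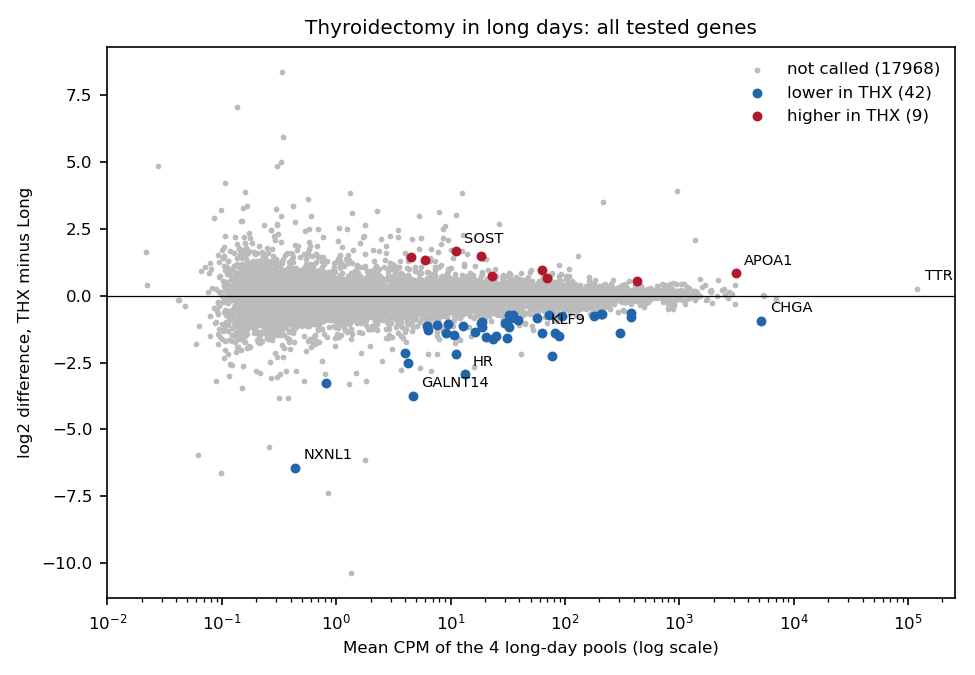
Log2 difference of THX minus Long pools against the mean CPM of the 4 long-day pools (log scale) for 18019 tested genes. Blue points are the 42 genes that fell, red points the 9 that rose and grey points the rest; the calls lie mostly below 0 and above 1 CPM.

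The Long pools held 56083949 and 54384558 counts and the THX pools 57551684 and 70185932. The 2 THX pools differed more from each other than the Long pools did: the median absolute log2 difference between pools was 0.196 in THX and 0.107 in Long. Markers of the tissue were present in all 4 pools, with TTR, KL, FOLR1, OTX2 and KCNJ13 among the 20 of 22 epithelial markers that were tested. KCNE2, another marker of this epithelium, had 0 counts in both Long pools and 1 in each THX pool. Markers of the pituitary were also present in all 4 pools, and none of them was called. Prolactin (PRL) was at 19.3 and 50.1 CPM in Long pools and at 588 and 201 CPM in THX pools. Growth hormone (GH) was at 1.14 and 2.15 CPM in Long pools and at 42.4 and 5.06 CPM in THX pools. LHB, a subunit of luteinising hormone, overlapped between the groups, at 7.83 and 21.8 CPM in Long and 21.3 and 11.5 CPM in THX pools. The number of calls changed with the pools used, to 9 when Long pool 1 was left out, 2 when Long pool 2 was, 13 when THX pool 1 was and 37 when THX pool 2 was. Leaving out either Short pool gave 24.

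**Figure D2:**
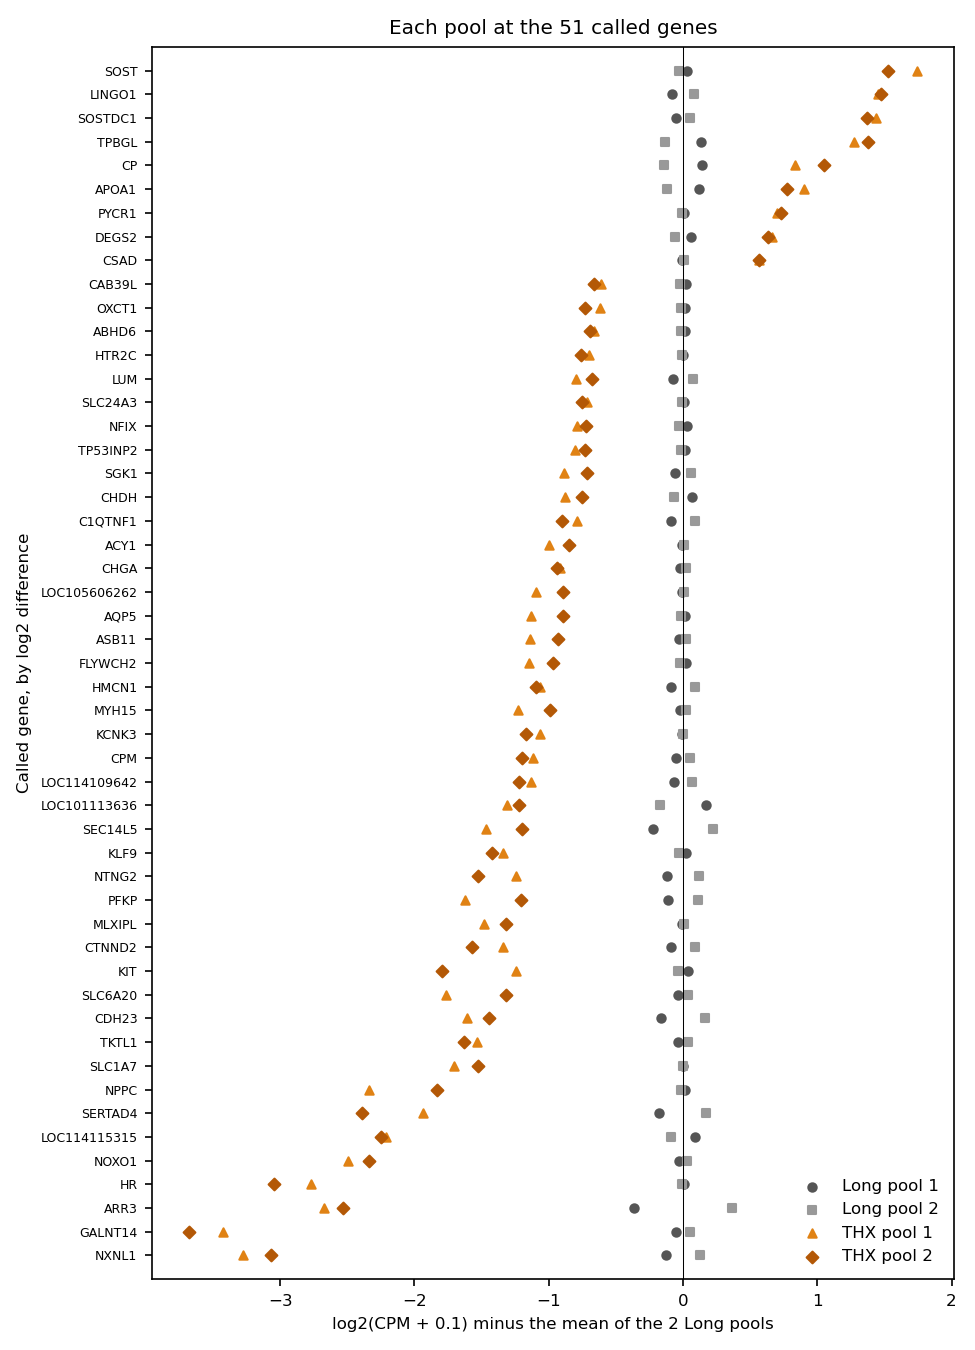
Level of each called gene in each of the 4 long-day pools, as log2(CPM + 0.1) minus the mean of the 2 Long pools. Circles and squares are Long pools and triangles and diamonds THX pools; no THX pool lies within the range of the Long pools at any of the 51 genes.

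Regulators of transcription were among the genes that fell. HR (identifier 443241), a corepressor that binds the thyroid hormone receptor and is itself a target of the hormone, was at 23.7 and 23.4 CPM in Long pools. In THX pools HR was at 3.36 and 2.76 CPM (7.70-fold lower, log2 difference −2.94 with SE 0.128, adjusted p = 0.000835). KLF9 (identifier 101104718), a transcription factor induced by the hormone, was at 93.2 and 89.9 CPM in Long pools. The THX pools had 36.1 and 34.1 CPM of KLF9 (2.61-fold lower, log2 difference −1.39 with SE 0.0892, adjusted p = 0.0053). Both genes were separated by a gap many times the distance between pools of a group.

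NFIX, a transcription factor of the nuclear factor I family, fell from 228 and 220 CPM to 130 and 136 CPM (log2 difference −0.76 with SE 0.0732, adjusted p = 0.0191). TP53INP2, an autophagy protein that also acts as a coactivator of nuclear receptors, fell from 120 and 117 CPM to 67.6 and 71.3 CPM (log2 difference −0.77, adjusted p = 0.0175). SERTAD4 was at 16.1 and 20.5 CPM in Long pools and at 4.66 and 3.37 CPM in THX pools (log2 difference −2.19 with SE 0.236, adjusted p = 0.027). In all of these the higher THX pool stayed well under the lower Long pool. FLYWCH2, a symbol borne by 2 identifiers, fell at identifier 101116790 (log2 difference −1.07, adjusted p = 0.0385). The other identifier, 101116622, had a log2 difference of −0.0065, and the counting of reads shared between them is not known. Of these 6 genes, 2 passed when Long pool 1 was left out, 1 when Long pool 2 was, 2 when THX pool 1 was and 4 when THX pool 2 was. Without either Short pool 5 passed. HR passed each time, with an adjusted p of at most 0.0146, and KLF9 had an adjusted p of 0.0882 without Long pool 2 at a log2 difference of −1.41.

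A list of 32 known hormone-responsive genes had 25 tested members. Of these HR, KLF9 and MLXIPL fell and none rose, whereas 0.233% of all tested genes fell and 0.0499% rose. This list and those below were chosen with earlier results of these data known. The number of calls in a list is therefore a description and no test, also beside these shares. The list's median log2 difference was −0.086 against 0.0011 for all genes, with 15 members below 0 and 10 above. Neurogranin (NRGN), a calmodulin-binding protein induced by the hormone in forebrain neurons, was at 3.05 and 2.26 CPM in Long and 1.16 and 1.10 CPM in THX pools (log2 difference −1.23, adjusted p = 0.293). Myelin basic protein (MBP) had 23.9 and 37.7 CPM in Long and 23.2 and 21.4 CPM in THX pools. The lipogenic enzyme FASN was at −0.21 on the log2 scale (adjusted p = 0.661).

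The machinery of hormone handling showed no calls apart from HR. Of 14 tested carriers, transporters and deiodinases, 7 lay above 0 and 7 below (median −0.016). TTR was at 107613 and 109231 CPM in Long pools and at 118872 and 140707 CPM in THX pools (log2 difference 0.26 with SE 0.0951, adjusted p = 0.473). SLCO2B1, an organic anion transporter, had a log2 difference of −0.55 (adjusted p = 0.205). For TTR and SLCO2B1 the groups did not overlap, which was the case for 37.2% of all genes. DIO2, the activating deiodinase, was at 3.84 and 5.02 CPM in Long and at 4.15 and 4.20 CPM in THX pools (log2 difference −0.084 with SE 0.195, adjusted p = 0.978). DIO1, at 0.178 and 0.184 CPM in Long and 0.229 and 0.105 CPM in THX pools, was close to the limit of counting. DIO3, the inactivating deiodinase, had 10 and 5 counts in Long pools and 3 and 0 in THX pools, too few to be tested.

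No receptor gene passed. THRA was at 197 and 191 CPM in Long and at 225 and 236 CPM in THX pools (log2 difference 0.25 with SE 0.075, adjusted p = 0.365). THRB was at 13.4 and 13.5 CPM in Long pools, inside the range of 12.4 to 16.6 CPM of the THX pools (log2 difference 0.11, adjusted p = 0.959). The groups overlapped for THRB and not for THRA, and they did not overlap for 37.2% of all tested genes. RXRA, a partner of both receptors, was at 83.8 and 77.0 CPM in Long and at 102 and 103 CPM in THX pools (log2 difference 0.35, adjusted p = 0.201). RXRG was near the counting limit in Long pools, at 0.0714 and 0.092 CPM, and at 0.599 and 0.316 CPM in THX pools (adjusted p = 0.234). Of the 20 tested receptors and coregulators, 11 lay above 0 and 9 below (median 0.012), and the median was −0.077 without THX pool 1 and 0.11 without THX pool 2.

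Among the genes that fell, 7 belong to metabolism, namely MLXIPL and 6 enzymes. MLXIPL, also called ChREBP, is a glucose-sensing transcription factor that drives glycolytic and lipogenic genes. It was at 119 and 120 CPM in Long pools and at 42.7 and 47.9 CPM in THX pools (2.64-fold lower, log2 difference −1.40 with SE 0.101, adjusted p = 0.00759). PFKP, the platelet form of the glycolytic enzyme phosphofructokinase, was at 403 and 470 CPM in Long and 141 and 189 CPM in THX pools (log2 difference −1.40 with SE 0.147, adjusted p = 0.0267). TKTL1, a relative of the pentose phosphate enzyme transketolase, was at 45.5 and 48.1 CPM in Long and 16.1 and 15.1 CPM in THX pools (log2 difference −1.59, adjusted p = 0.0267). PFKP spread more within groups than MLXIPL or TKTL1, and no THX pool reached the level of a Long pool in any of them.

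Of the 35 tested genes of glycolysis and the pentose phosphate pathway, PFKP and TKTL1 were the 2 that fell and none rose. Of all tested genes 0.233% fell. The list's median was −0.024, with 15 members above 0 and 20 below. ALDOC had a log2 difference of 0.33 (adjusted p = 0.296), and GAPDH was at 2126 and 2098 CPM in Long and 1598 and 1927 CPM in THX pools (log2 difference −0.26, adjusted p = 0.509). The other subunit genes of phosphofructokinase, PFKL and PFKM, were at −0.29 and −0.056 on the log2 scale (adjusted p = 0.765 and 0.956).

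OXCT1, the mitochondrial enzyme that activates ketone bodies for oxidation, fell from 263 and 258 CPM to 170 and 157 CPM (log2 difference −0.67 with SE 0.0802, adjusted p = 0.0336). ABHD6, a lipase that degrades monoacylglycerols including an endocannabinoid, fell from 259 and 253 CPM to 162 and 158 CPM (log2 difference −0.68, adjusted p = 0.027). CHDH, which oxidises choline towards betaine, was at 45.3 and 41.3 CPM in Long and 23.6 and 25.6 CPM in THX pools (log2 difference −0.82, adjusted p = 0.027). ACY1, which frees amino acids from their acetylated forms, fell by 0.92 on the log2 scale, from 50.2 and 50.6 CPM to 25.2 and 27.9 CPM (adjusted p = 0.016). These 4 enzymes of lipid, ketone, choline and amino acid use had tight pools in both groups.

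MLXIPL was the 1 call among fatty acid genes, against 0.233% of all tested genes that fell. Of 33 tested, 25 were below 0 and 8 above (median −0.11), and 10, MLXIPL included, had an unadjusted p below 0.05 in the downward direction and 0 upward. Among all genes 4.92% had such a p downward and 4.16% upward. ACACB, an acetyl-CoA carboxylase that acts as a brake on fat oxidation, was at 35.6 and 39.8 CPM in Long and 22.2 and 17.8 CPM in THX pools (log2 difference −0.92, adjusted p = 0.0717). FABP5, a fatty acid carrier, was at 148 and 124 CPM in Long and 86.7 and 85.4 CPM in THX pools (adjusted p = 0.123). CPT2, an enzyme of mitochondrial fatty acid import, was at −0.31 on the log2 scale (adjusted p = 0.264). Of the 7 called genes of this metabolic group, none passed without Long pool 1 (adjusted p from 0.0636 to 0.296) or Long pool 2 (0.0956 to 0.259). Omission of THX pool 1 left 1 of the 7, omission of THX pool 2 left 3, and omission of either Short pool left 3.

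**Figure D3:**
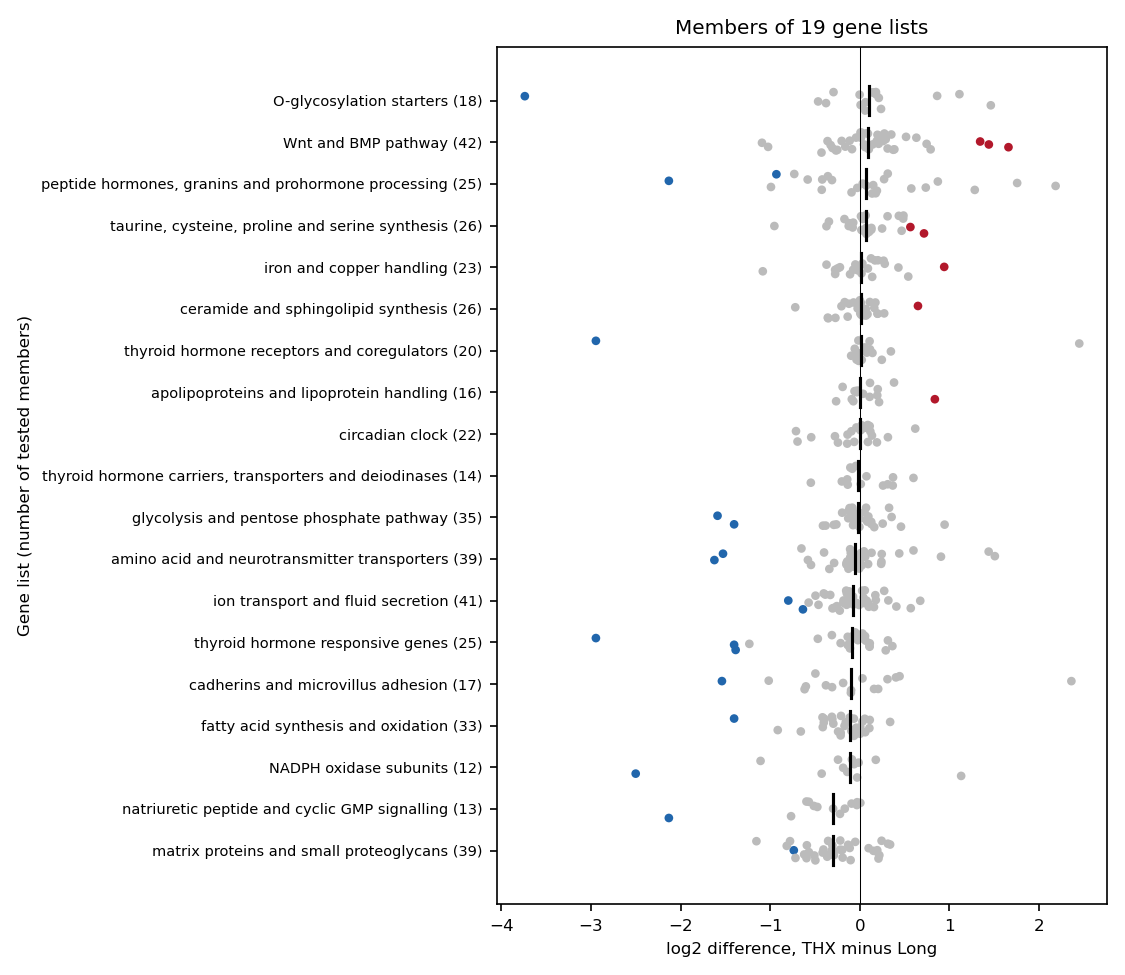
Log2 difference of THX minus Long pools for the tested members of 19 gene lists, with the number tested in brackets. Black bars are list medians, blue points genes that fell and red points genes that rose; the lowest medians are those of the matrix list (−0.30) and the natriuretic peptide list (−0.30).

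Membrane transporters and their regulators made up another 7 of the decreases. SLC6A20, a proline transporter, was at 127 and 134 CPM in Long and 38.5 and 52.4 CPM in THX pools (2.88-fold lower, log2 difference −1.53 with SE 0.143, adjusted p = 0.0179). SLC1A7, a glutamate transporter with a chloride conductance, was at 35.4 and 35.5 CPM in Long and 10.8 and 12.2 CPM in THX pools (3.08-fold lower, adjusted p = 0.0179). They were the 2 called among 39 tested amino acid and neurotransmitter transporters, against 0.233% of all tested genes that fell. The list's median was −0.051, with 16 members above 0 and 23 below. SLC7A5, which carries large neutral amino acids and thyroid hormone, had 32.4 and 34.3 CPM in Long and 43.3 and 57.7 CPM in THX pools (log2 difference 0.60, adjusted p = 0.288). SLC6A15, a carrier of branched-chain amino acids and proline, had a log2 difference of −0.54 (adjusted p = 0.259).

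AQP5, a water channel of secretory glands, fell from 25.1 and 24.5 CPM to 11.3 and 13.3 CPM (log2 difference −1.01 with SE 0.111, adjusted p = 0.027). KCNK3, a background potassium channel, fell from 8.47 and 8.52 CPM to 4.01 and 3.72 CPM (log2 difference −1.14, adjusted p = 0.0383). SLC24A3, which exchanges sodium for calcium and potassium, fell from 40.8 and 40.5 CPM to 24.8 and 24.1 CPM (log2 difference −0.74, adjusted p = 0.028). Each of these 3 channels and exchangers had nearly equal levels in its 2 Long pools.

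SGK1, a kinase induced by corticosteroids that raises sodium transport, was at 464 and 504 CPM in Long and 262 and 295 CPM in THX pools (log2 difference −0.80 with SE 0.0889, adjusted p = 0.0272). CAB39L, a scaffold that activates kinases of the STK family, was at 466 and 452 CPM in Long and 301 and 290 CPM in THX pools (log2 difference −0.63, adjusted p = 0.0274). In the list of ion transport and fluid secretion these were the 2 called of 41 tested (median −0.080, 15 above 0 and 26 below). The share of all tested genes that fell was 0.233%. WNK4 and STK39, 2 kinases of the cascade that controls chloride cotransport, lay in the other direction without passing. WNK4 was at 44.9 and 55.4 CPM in Long and 82.3 and 77.9 CPM in THX pools (log2 difference 0.67, adjusted p = 0.101), and STK39 at 142 and 153 CPM and 239 and 200 CPM (log2 difference 0.57, adjusted p = 0.122). ATP1B2, a beta subunit of the sodium pump, had a log2 difference of 0.41 (adjusted p = 0.11). Of the 7 called transport genes, 0 passed without Long pool 1 (adjusted p from 0.0906 to 0.316) and 0 when Long pool 2 was left out (0.178 to 0.27). Omission of THX pool 1 left 1, of THX pool 2 left 3, and of either Short pool left 2.

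Secreted peptides, a peptidase and surface receptors formed a further group. CHGA, the secretory granule protein chromogranin A, was at 6745 and 6955 CPM in Long and 3622 and 3568 CPM in THX pools (1.91-fold lower, log2 difference −0.93 with SE 0.0764, adjusted p = 0.0135). By counts it was the most abundant gene that fell. The 2 pools of each group differed by far less than the groups did. Carboxypeptidase M, a membrane enzyme that trims peptides and whose gene symbol is also CPM, fell by 1.17 on the log2 scale. Its level on the CPM scale was 25 and 26.9 in Long and 11.9 and 11.2 in THX pools (adjusted p = 0.0154). NPPC, which encodes C-type natriuretic peptide, was at 6.62 and 6.46 CPM in Long and 1.22 and 1.76 CPM in THX pools (4.38-fold lower, SE 0.25 on the log2 scale, adjusted p = 0.0318).

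No other granin or processing enzyme passed the test. CHGB was at 1.25 and 4.86 CPM in Long and 14.4 and 6.25 CPM in THX pools (log2 difference 1.76, adjusted p = 0.522). SCG3 and SCG5 also lay above 0, at 2.19 and 0.74 (adjusted p = 0.528 and 0.499). SCG2 was at 1.28 and VGF at −0.58, both with overlapping groups. Of 25 tested genes of this list, CHGA and NPPC fell, none rose, and the median was 0.073 with 14 above 0 and 11 below. Of all tested genes 0.233% fell. PCSK6, a proprotein convertase, had 193 and 226 CPM in Long and 356 and 270 CPM in THX pools (log2 difference 0.58, adjusted p = 0.264). PAM, which amidates peptides, had 212 and 257 CPM in Long and 168 and 183 CPM in THX pools (log2 difference −0.42, adjusted p = 0.288). Chromogranins are also abundant in the pituitary. The summed pituitary and pineal markers stood at 35.5 and 143 CPM in Long and 743 and 240 CPM in THX pools. Without PRL they stood at 16.2 and 93.3 CPM in Long and 155 and 38.5 CPM in THX pools, where the groups overlap, and their part in the level of CHGA was not tested.

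Natriuretic peptide and cyclic GMP signalling genes lay mostly below 0. Of 13 tested, 12 were below 0 and 1 above (median −0.30). NPPC was the 1 that fell, against 0.233% of all tested genes. An unadjusted p below 0.05 downward was found for 5, against 4.92% of all genes. NPPA and NPPB, which encode other natriuretic peptides, had 0 counts in all pools. CORIN, a protease of natriuretic peptide precursors, was at 12.5 CPM in both Long pools and at 8.78 CPM in both THX pools (log2 difference −0.51 with SE 0.112, adjusted p = 0.201). PRKG1, the kinase activated by cyclic GMP, was at 14 and 11.9 CPM in Long and 8.45 and 8.69 CPM in THX pools (adjusted p = 0.261). GUCY1A1, a subunit of the nitric oxide receptor, was at −0.47 (adjusted p = 0.434). The natriuretic peptide receptors NPR1 and NPR2 were at −0.032 and −0.029 on the log2 scale (adjusted p = 0.988 and 0.98). The protease FURIN was at −0.092 (adjusted p = 0.824). The median was −0.38 without Long pool 1 and −0.23 without THX pool 2, and NPPC did not pass in any fit that left out 1 of the 6 pools.

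HTR2C, the serotonin receptor typical of this epithelium, was at 44.4 and 44.1 CPM in Long and 27.2 and 26.1 CPM in THX pools (1.66-fold lower, SE 0.0721 on the log2 scale, adjusted p = 0.0203). KIT, the receptor of stem cell factor and a marker of mast cells, was at 37.6 and 35.7 CPM in Long and 15.4 and 10.5 CPM in THX pools (log2 difference −1.50, adjusted p = 0.0318). C1QTNF1, a secreted relative of adiponectin, fell from 69.2 and 78.1 CPM to 42.6 and 39.4 CPM (log2 difference −0.85, adjusted p = 0.0274). Of 10 mast cell markers 6 were tested, KIT included, and all 6 lay below 0 (median −0.98). Some were scarce: the receptor subunit MS4A2 was at 0.232 and 0.294 CPM in Long and 0.0352 and 0.0452 CPM in THX pools. The summed markers, mostly KIT and GATA2, ran from 55.2 to 60.8 CPM in Long and from 29.8 to 32.4 CPM in THX pools. KIT itself held 37.6 and 35.7 CPM of this sum in Long and 15.4 and 10.5 CPM in THX pools. The sum is thus not separate from KIT, and the part of mast cells in the level of KIT was not tested. In pooled tissue, fewer cells of a type and less RNA per cell cannot be told apart. The mast cell median ranged from −1.68 without THX pool 2 to −0.32 without Long pool 1. Of the 6 called genes of this group, 0 passed when either Long pool was left out, 2 when THX pool 1 was, 3 when THX pool 2 was and 2 when either Short pool was.

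Single genes of glycosylation, oxidant production and cell adhesion also fell. GALNT14, which attaches the initial sugar of O-linked glycans to proteins, was at 8.42 and 9.04 CPM in Long and 0.722 and 0.587 CPM in THX pools (13.3-fold lower, log2 difference −3.74 with SE 0.22, adjusted p = 0.00385). No other member of its family passed: of 18 tested starter enzymes and partners, 13 lay above 0 and 5 below (median 0.10). GALNT15 was at 6.01 and 7.21 CPM in Long and 11.9 and 12.1 CPM in THX pools (log2 difference 0.86, adjusted p = 0.105), and GALNT13 had a log2 difference of 1.11 (adjusted p = 0.247). That median was 0.0046 without THX pool 1 and 0.16 without THX pool 2.

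NOXO1, the organiser of an NADPH oxidase, was at 7.05 and 7.34 CPM in Long and 1.20 and 1.34 CPM in THX pools (5.66-fold lower, log2 difference −2.50 with SE 0.171, adjusted p = 0.00626). It was the 1 called gene of 12 tested oxidase subunits, of which 10 lay below 0 (median −0.11), against 0.233% of all tested genes that fell. NOX3, the catalytic partner of NOXO1 in the inner ear, was at 0.214 and 0.423 CPM in Long and 0.158 and 0.136 CPM in THX pools (adjusted p = 0.621). CDH23, an adhesion protein of hair cell tip links, was at 27.1 and 33.9 CPM in Long and 9.89 and 11.1 CPM in THX pools (2.90-fold lower, SE 0.168 on the log2 scale, adjusted p = 0.027). Of 17 tested cadherin and microvillus adhesion genes it was the 1 that fell, against 0.233% of all tested genes. The list's median was −0.099. CDH16, the kidney cadherin, had a log2 difference of −0.60 (adjusted p = 0.226), and CDH3 one of 0.31 (adjusted p = 0.395).

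CTNND2, a catenin of adherens junctions, was at 14.9 and 16.8 CPM in Long and 6.21 and 5.26 CPM in THX pools (log2 difference −1.47, adjusted p = 0.027). NTNG2, a membrane-anchored netrin, was at 12.2 and 14.4 CPM in Long and 5.53 and 4.53 CPM in THX pools (log2 difference −1.40, adjusted p = 0.0464). HMCN1, a large matrix protein, fell by 1.10 on the log2 scale (adjusted p = 0.0455). The higher THX pool lay well under the lower Long pool at all 3 genes. Lumican (LUM), a collagen-binding proteoglycan, was at 86.0 and 95.3 CPM in Long and 52.1 and 56.7 CPM in THX pools (log2 difference −0.74 with SE 0.0856, adjusted p = 0.0315).

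LUM stood among many matrix genes below 0. Of 39 tested matrix proteins and proteoglycans, 30 lay below 0 and 9 above (median −0.30), and 15 had an unadjusted p below 0.05 downward and 2 upward, against 4.92% and 4.16% of all tested genes. COL3A1, a fibrillar collagen, was at 183 and 162 CPM in Long and 88.4 and 113 CPM in THX pools (log2 difference −0.78, adjusted p = 0.16). The elastic fibre protein FBLN5 was at 21.3 and 21.5 CPM in Long and 13.4 and 12.7 CPM in THX pools (adjusted p = 0.174). OGN, a proteoglycan of the meninges, was at 391 and 398 CPM in Long and 298 and 234 CPM in THX pools (adjusted p = 0.197). At these 3 genes both THX pools were below both Long pools, as at 18.7% of all tested genes. PRELP and TNC lay above 0, at log2 differences of 0.31 and 0.34 (adjusted p = 0.242 and 0.516). Summed fibroblast and leptomeninges markers, which hold LUM, COL3A1 and OGN too, ran from 1778 to 1819 CPM in Long and from 1193 to 1467 CPM in THX pools. The part of that cell type in the lower matrix levels was not tested. Of the 7 called genes from GALNT14 to LUM, 2 passed when Long pool 1 was left out and 0 when Long pool 2 was, where GALNT14 had an adjusted p of 0.0526. Omission of either THX pool left 2 and of either Short pool left 4.

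Another 5 named genes fell without a role shared by all 5. NXNL1, a gene of photoreceptors whose product supports cone survival, had 96 counts in the Long pools together and 1 in the THX pools. The ratio per total count was 111, with a 95% exact interval of 19.5 to 4430 that covers counting error only (adjusted p = 0.027). ARR3, the cone arrestin, was at 1.09 and 1.88 CPM in Long and 0.141 and 0.166 CPM in THX pools (log2 difference −3.25 with SE 0.401, adjusted p = 0.0361). Both are known from the retina and were low in this tissue. The myosin MYH15 fell from 17.2 and 17.7 CPM to 7.36 and 8.71 CPM, the ubiquitin ligase adaptor ASB11 from 39.7 and 41.1 CPM to 18.3 and 21.1 CPM, and SEC14L5 from 19.8 and 26.9 CPM to 8.31 and 10 CPM. Of these 5 genes, 0 passed when either Long pool or THX pool 1 was left out, 2 when THX pool 2 was and 1 when either Short pool was.

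The remaining 4 decreases had no symbol. LOC114115315 was at 135 and 119 CPM in Long and 27.3 and 26.6 CPM in THX pools (4.72-fold lower, log2 difference −2.24 with SE 0.0995, adjusted p = 0.000835). Together with HR it was the only called gene that passed without each of the 6 pools in turn, with an adjusted p of at most 0.0124. LOC114109642 fell by 1.18 on the log2 scale (adjusted p = 0.016), and passed in 2 of those 6 fits. What these identifiers encode is not given in the sources used here.

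Of the 9 increases, SOST had the largest fold and LINGO1 the lowest adjusted p. SOST, a secreted antagonist of Wnt signalling known from bone, was at 5.48 and 5.24 CPM in Long and 18.2 and 15.7 CPM in THX pools (3.16-fold higher, log2 difference 1.66 with SE 0.146, adjusted p = 0.016). SOSTDC1, its relative that also binds BMPs, was at 2.34 and 2.52 CPM in Long and 6.76 and 6.43 CPM in THX pools (2.71-fold higher, adjusted p = 0.0337). TPBGL, a relative of the Wnt-modulating glycoprotein TPBG, was at 3.69 and 3.04 CPM in Long and 8.22 and 8.86 CPM in THX pools (log2 difference 1.34, adjusted p = 0.0443). These 3 genes were the calls among 42 tested Wnt and BMP genes, of which 28 lay above 0 and 14 below (median 0.096). Of all tested genes 0.0499% rose, and the list was chosen with earlier results known.

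Other secreted Wnt antagonists were higher in THX pools without passing. SFRP5 was at 663 and 641 CPM in Long and 854 and 851 CPM in THX pools (log2 difference 0.39 with SE 0.0767, adjusted p = 0.167), and FRZB at 526 and 520 CPM and 618 and 611 CPM (adjusted p = 0.451). SFRP4 lay in the other direction, at 67.6 and 40.9 CPM in Long and 18.2 and 32.6 CPM in THX pools (log2 difference −1.09, adjusted p = 0.449). The ligand BMP2 had a log2 difference of −1.02 (adjusted p = 0.196), and ID1, a target of BMP signals, one of 0.75 (adjusted p = 0.438).

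Secreted carriers rose too. APOA1, the main protein of high-density lipoprotein, was at 2409 and 2041 CPM in Long and 4151 and 3802 CPM in THX pools (1.79-fold higher, SE 0.103 on the log2 scale, adjusted p = 0.0361). Ceruloplasmin (CP), which carries copper and oxidises iron, was at 47.4 and 38.8 CPM in Long and 76.5 and 89.1 CPM in THX pools (1.92-fold higher, SE 0.121 on the log2 scale, adjusted p = 0.0417). Each was the 1 call in its list, of 16 tested apolipoprotein and lipoprotein genes (median 0.0077) and of 23 tested iron and copper genes (median 0.019). The share of all tested genes that rose was 0.0499%. PLTP, which transfers phospholipids between lipoproteins, was at 2142 and 2222 CPM in Long and 2452 and 2615 CPM in THX pools (adjusted p = 0.447). STEAP4, a metalloreductase, lay in the other direction from CP (log2 difference −1.08, adjusted p = 0.18).

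Enzymes of taurine, proline and ceramide synthesis were the rest of the increases apart from LINGO1. CSAD, which makes the precursor of taurine, was at 344 and 347 CPM in Long and at 512 and 511 CPM in THX pools (1.48-fold higher, SE 0.0683 on the log2 scale, adjusted p = 0.0337). PYCR1, the last enzyme of proline synthesis, was at 17.5 and 17.4 CPM in Long and 28.4 and 29.0 CPM in THX pools (log2 difference 0.72, adjusted p = 0.0337). The pools of a group were almost equal for both. In the list of taurine, cysteine, proline and serine synthesis they were the 2 calls of 26 tested (median 0.068, 18 above 0). The share of all tested genes that rose was 0.0499%. PRODH, which degrades proline, was at 867 and 897 CPM in Long and 1121 and 1265 CPM in THX pools (log2 difference 0.44, adjusted p = 0.162).

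DEGS2, which makes hydroxylated ceramides, rose from 56.0 and 51.5 CPM to 85.2 and 83.6 CPM (log2 difference 0.65, adjusted p = 0.0336). It was the 1 call of 26 tested sphingolipid genes (median 0.015), against 0.0499% of all tested genes that rose. LINGO1, a coreceptor that restrains axon growth and myelination, rose at identifier 101117451 from 9.15 and 10.3 CPM to 26.8 and 27.2 CPM (log2 difference 1.47 with SE 0.109, adjusted p = 0.00799). That symbol is borne by 2 identifiers. Of the 9 genes, 0 passed without Long pool 1 (adjusted p from 0.0853 to 0.404) and 0 when Long pool 2 was left out (0.0956 to 0.355). Omission of THX pool 1 left 1, of THX pool 2 left 2, and of either Short pool left 2. With the 4 long-day pools alone SOST and LINGO1 passed, and the other 7 did not (adjusted p up to 0.0933).

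Beyond the threshold, 41 genes had an adjusted p between 0.05 and 0.1, of which 27 were lower and 14 higher in THX pools. The nearest was MYLIP, a ubiquitin ligase that degrades the LDL receptor, at 42.5 and 41.4 CPM in Long and 28.8 and 26.5 CPM in THX pools (log2 difference −0.60, adjusted p = 0.0537). Next came HS3ST2, a heparan sulfate sulfotransferase (log2 difference −1.49, adjusted p = 0.0554), and the fructose transporter SLC2A5, at 10.01 and 11.9 CPM in Long and 3.66 and 4.88 CPM in THX pools (adjusted p = 0.0589). HCN4, a pacemaker channel, was at 2.34 and 1.66 CPM in Long and 6.51 and 5.57 CPM in THX pools (log2 difference 1.60, adjusted p = 0.0641). The groups did not overlap at any of these 4 genes, which was the case for 37.2% of all tested genes.

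Some genes with large differences were not called, and in most of those named here the pools of 1 group stood far apart. BRINP1, a neural gene, was at 12.6 and 12.2 CPM in Long and 1.73 and 3.71 CPM in THX pools (log2 difference −2.19 with SE 0.335, adjusted p = 0.0822). SORCS1, a sorting receptor, was at 6.44 and 2.1 CPM in Long and 0.687 and 0.874 CPM in THX pools (adjusted p = 0.18). RFC2, a replication factor, was at 15.9 CPM in Long pool 1 and 119 CPM in Long pool 2, against 13.6 and 15.8 CPM in THX pools. CPAMD8 was higher in THX pools, at 13.0 and 18.0 CPM against 1.93 and 5.34 CPM (log2 difference 2.09 with SE 0.467, adjusted p = 0.211).

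The circadian clock list held no call among 22 tested genes (median 0.0071, 12 above 0 and 10 below). The share of all tested genes that was called was 0.283%. ARNTL, the activator of the clock, was at 18.2 and 20.6 CPM in Long and 32.4 and 27.1 CPM in THX pools (log2 difference 0.62 with SE 0.119, adjusted p = 0.154). DBP, an output gene of the clock, was at 63.4 and 60.1 CPM in Long and 30.9 and 45.4 CPM in THX pools (log2 difference −0.69, adjusted p = 0.247). CIART, a repressor, had a log2 difference of −0.54 (adjusted p = 0.177). Levels of such genes follow the hour of sampling, which was not used here.

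Among the 20 genes with the highest counts, CHGA fell and APOA1 rose, and the other 18 did not pass. CST3, the protease inhibitor cystatin C, was at 2615 and 2693 CPM in Long and 3399 and 3630 CPM in THX pools (log2 difference 0.41 with SE 0.0763, adjusted p = 0.145). IGFBP2, a binding protein of insulin-like growth factors, was at 1731 and 1726 CPM in Long and 2321 and 2889 CPM in THX pools (log2 difference 0.59, adjusted p = 0.15). ENPP2, the secreted enzyme autotaxin, was at 3364 and 3483 CPM in Long and 2768 and 2745 CPM in THX pools (log2 difference −0.31, adjusted p = 0.273). TTR alone took 10.8% of all counts in Long pool 1, 10.9% in Long pool 2, 11.7% in THX pool 1 and 13.3% in THX pool 2. HTR2C was the 1 epithelial marker that fell, of 20 tested, against 0.233% of all tested genes. As a list the epithelial markers had 13 members above 0 and 7 below (median 0.073). Their summed level was mostly TTR: without it the other 19 summed to 13754 and 13777 CPM in Long and 13644 and 14293 CPM in THX pools, which overlap. KL, the ageing-related coreceptor klotho, was at 893 and 978 CPM in Long and 715 and 608 CPM in THX pools (log2 difference −0.50, adjusted p = 0.222).

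**Figure D4:**
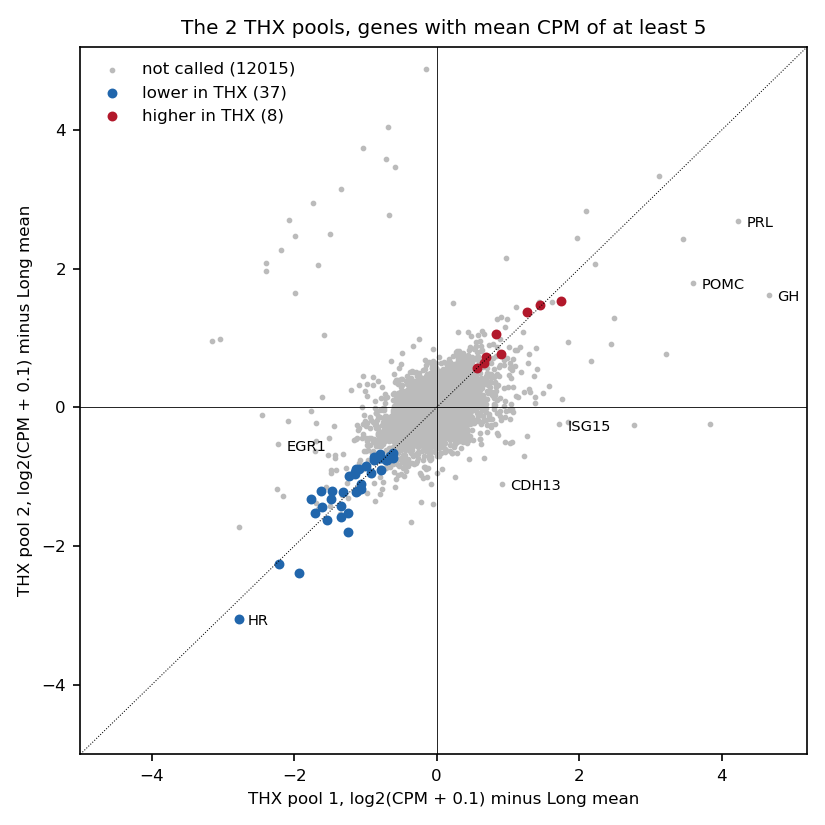
THX pool 2 against THX pool 1 for genes with a mean of at least 5 CPM, each as log2(CPM + 0.1) minus the mean of the Long pools. Called genes (37 lower in blue, 8 higher in red) lie near the dotted line of equal difference, whereas PRL, POMC, GH and a group of unlabelled genes at the upper left lie far from it.

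The THX pools were not alike in every respect. They differed by at least 2-fold at 740 genes (4.11% of those tested), against 440 genes (2.44%) for the Long pools. Interferon-induced ISG15 was at 21.8 CPM in THX pool 1 and 5.51 CPM in THX pool 2, and EGR1, an immediate early gene, at 4.17 and 13.7 CPM. CDH13, a membrane-anchored cadherin, was at 64.5 and 15.8 CPM. None of these 3 genes was called, and the Long pools lay at 7.48 and 5.74, 18.4 and 21.6, and 41.3 and 28.2 CPM for them.

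Antigen receptor genes also differed between the 2 THX pools. The 23 tested identifiers that the reference table classes as V segments or C regions summed to 147 CPM in THX pool 1 and 4034 CPM in THX pool 2, and to 196 and 424 CPM in the Long pools. A single C region, LOC101108817, held 3483 CPM of this in THX pool 2, against 104 to 132 CPM in the other 3 long-day pools. The joining chain of secreted antibodies, JCHAIN, was at 10.9 and 68.3 CPM in THX pools 1 and 2 and at 12.3 and 88.2 CPM in Long pools 1 and 2. None of the 23 was called.

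**Figure D5:**
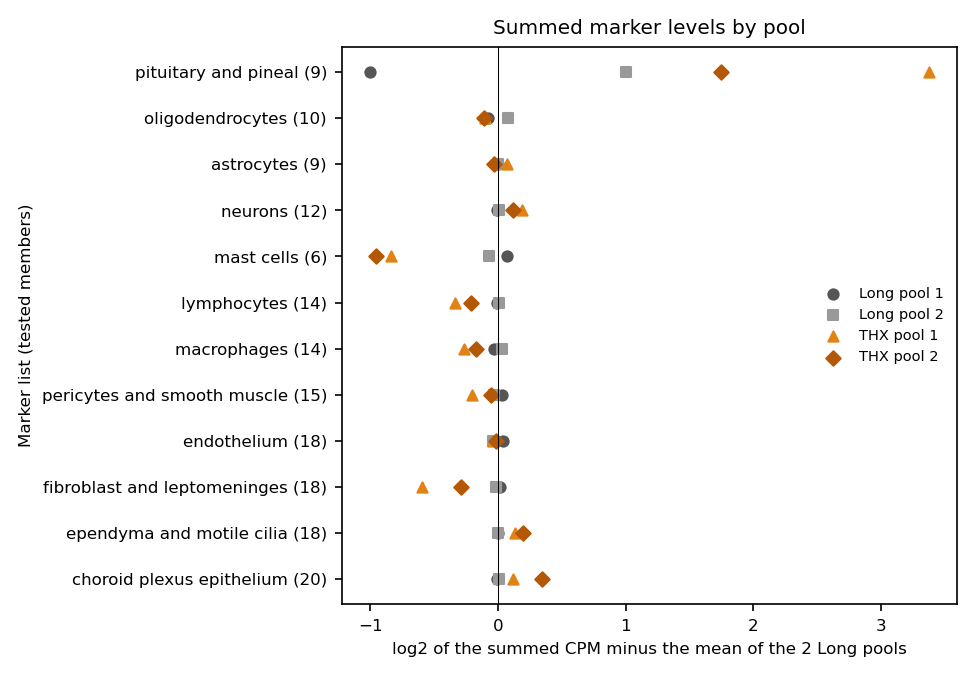
Summed CPM of the tested members of 12 marker lists in each of the 4 long-day pools, on a log2 scale relative to the mean of the Long pools. The pituitary and pineal list spreads widest, the fibroblast and mast cell lists are lower in both THX pools, and the epithelial list, most of which is TTR, is higher in both. The mast cell sum includes the called gene KIT.

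Markers of other cell types varied among the pools. Of the 9 tested pituitary and pineal markers, POMC was at 2.43 and 2.47 CPM in Long and 30.7 and 8.77 CPM in THX pools, and POU1F1, which drives hormone genes of the anterior pituitary, at 0.0178 and 0.0184 CPM and 1.02 and 0.271 CPM. TSHB and CGA, the subunits of thyrotropin, did not follow this order: TSHB was at 0.268 and 15.9 CPM in Long and 16.4 and 1.93 CPM in THX pools. The median of this list was 0.26, but −0.30 when Long pool 1 was left out, 3.41 when Long pool 2 was, −0.21 when THX pool 1 was and 1.03 when THX pool 2 was. Haemoglobin HBB was at 53.5 CPM in Long pool 2 and at 1.77 to 4.59 CPM in the other 3 long-day pools. Macrophage markers summed to 376 and 394 CPM in Long and to 320 and 342 CPM in THX pools, with 12 of 14 below 0 and none called. Lymphocyte markers had 13 of 14 below 0 (median −0.30), at 54.4 and 55.2 CPM against 43.4 and 47.2 CPM. Endothelial (median −0.023) and ependymal markers (median 0.087) had no calls, nor did neuronal and astrocyte markers (both medians 0.14). Those of neurons and astrocytes were −0.28 and −0.13 without THX pool 1. Oligodendrocyte markers (8 of 10 below 0, median −0.30) and those of pericytes and smooth muscle (12 of 15 below 0, median −0.17) held no call either. The part of these cell types in the 51 calls was not tested.

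Neighbouring genes could share reads with a called gene, since the strand setting of the counting is not given in the sources used here. Of the 47 called genes found in the reference table, 14 overlap another tested gene there, and 11 of these 14 partners had a log2 difference of the same sign as the called gene. None of the partners was called, and the share over all overlapping pairs was not computed. SACM1L, LYL1 and CACNA1D, which overlap SLC6A20, NFIX and CHDH, lay on the other side of 0, at 0.046, 0.14 and 0.21. HPS3, which overlaps CP, counts as the same sign at 0.00024. DNASE1L3, a DNA-degrading enzyme that overlaps ABHD6, had a log2 difference of −1.60 (adjusted p = 0.0936). PIGA, which overlaps ASB11, had −0.75 (adjusted p = 0.214), and HHLA2, which overlaps MYH15, −0.79 (adjusted p = 0.294). ZNF740, which overlaps the increase CSAD, had 0.30 (adjusted p = 0.346).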

How the data were processed

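RNA of the choroid plexus was measured in 6 pools. Per the labels' protocols, polyadenylated RNA was sequenced from stranded libraries, and the submitters' processing notes name the tools featureCounts 2.0.0, TopHat2 2.1.1 and SAMtools 1.9. The files hold raw whole-number counts, which the authors deposited without normalisation. No positions are printed, because the build is not given in the sources used here, nor are annotation and strand setting. Names came from the file and a RefSeq gene table of assembly ARS-UI_Ramb_v3.0, which held 28100 of the 33609 identifiers. No sequences are shown.

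Here, in R 4.3.3, edgeR 4.0.16 filtered genes by group, scaled counts by TMM and fitted 1 mean per group to all 6 pools (3 residual and 3.96 prior degrees of freedom). THX minus Long was tested two-sided, by the quasi-likelihood F statistic, with Benjamini-Hochberg adjustment over 18019 genes. The SE is the log2 difference divided by the root of F. CPM use TMM-scaled totals. Called genes were all named where they had a symbol. Further genes were the lowest p per list, the lowest adjusted p above 0.05, the largest uncalled differences at 2 CPM or more, the largest gaps between THX pools at 5 CPM or more, and the 20 highest counts. The 32 gene lists, 19 of pathways and 13 of markers, are described without a test. Members, lists and rules were chosen with earlier results of these data known. The antigen receptor genes, the roles of called genes, overlapping and adjacent genes, and some list members named beside a call (such as PFKL, NOX3, FRZB and SFRP4) were chosen after their values were seen, as were the sums without TTR or PRL. The fit was also run on simulated counts that had the same spread for all genes and groups. That run cannot speak to the spread of the pools here. Alternatives used DESeq2 1.42.0 and limma 3.58.1. Figures used Python 3.11.15 and matplotlib 3.10.9. Some genes that the rule takes were left out of the text.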

Additional observations from a re-analysis of the deposited data

How the results depend on the processing

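The 51 calls (9 higher, 42 lower) were also 51 (9 and 42) with RLE or upper-quartile factors, and 45 by limma voom (9 and 36), all of them among the 51. A minimum mean of 5 CPM gave 46 (8 and 38). DESeq2 called 448 (186 and 262), and edgeR with no filter called 204 (64 and 140), both including all 51. The 4 long-day pools alone gave 22 (2 and 20), 20 of them among the 51, with 5 of 6 regulators, 3 of 7 metabolic, 2 of 7 transport, 2 of 6 signalling, 3 of 7 surface and 2 of 9 increased genes. An adjusted p under 0.1 gave 92 (23 and 69). Leaving out 1 pool gave 2 to 37 calls, with 0 to 5 higher and 2 to 32 lower, and between 2 and 21 of these calls were among the 51. With the pool number as a replicate block, 48 genes passed (7 and 41), 41 of them among the 51. Nothing in the labels pairs the numbers, and deviations of same-numbered pools correlated across genes at 0.0965 (Long and THX), 0.285 (Short and THX) and −0.0627 (Short and Long). Of the 51 genes, 24 failed in each of the 6 fits with 1 pool left out and 2 passed in all 6. No named called gene changed direction under any of these alternatives. The groups did not overlap at any of the 51 genes, so a kept direction was to be expected and adds no support. Among uncalled genes, leaving out 1 pool gave THRB −0.12 (without THX pool 1) to 0.31, DIO2 −0.27 to 0.12 (without Long pool 2) and DIO1 −0.77 to 0.34 (without THX pool 2). The cause of these differences was not tested. The SE was largest among genes under 1 CPM, with a median of 0.496.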

Other observations

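The gene next to a called gene tended to lie on the same side of 0. In the order of the reference table, 45 of 57 tested genes adjacent to a called gene without overlapping it had a log2 difference of the same sign (78.9%). Among all adjacent pairs of tested genes it was 4196 of 7826 (53.6%). These shares are not alike. For called genes the nearest gene on each side was taken past any overlapping gene, and for all pairs only consecutive genes. The pairs also hold many genes with differences near 0, whose sign is uncertain (25th and 75th percentiles of all tested genes −0.12 and 0.12). None of the 57 was called. PODN, a leucine-rich proteoglycan next to SLC1A7, had a log2 difference of −0.66 (adjusted p = 0.0936), and CPT2, on its other side, −0.31 (adjusted p = 0.264). KERA and DCN, proteoglycan genes on either side of LUM, had −0.81 and −0.50 (adjusted p = 0.815 and 0.377). AQP6, next to AQP5, had −0.80 (adjusted p = 0.832). GOLGA5 and ITPK1, the neighbours of CHGA, had −0.022 and −0.25 (adjusted p = 0.987 and 0.349). TRPM3, next to KLF9, lay on the other side of 0, at 0.047 (adjusted p = 0.98). This pattern was noticed after the values were seen and was not tested.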
